A study of Mus musculus with 14 samples.

Results

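NRF2, encoded by Nfe2l2, its inhibitor KEAP1, encoded by Keap1, and 8 genes that NRF2 is known to switch on were followed in 3 cell populations sorted from injured mouse liver. The 8 targets were Nqo1, Gclc, Gclm, Txnrd1, Srxn1, Slc7a11, Gsr and Gpx2. These 10 genes were chosen by symbol from the 20377 symbols of the expression table, and the transcript with the highest mean was taken where a symbol had several. Levels are in RPKM, reads per kilobase of transcript, scaled to the size of the library, so they can be set beside each other between genes. All 10 genes were among the 12638 symbols that reached 1 RPKM in at least 4 of the 14 libraries and were tested. Slc7a11 passed only through the 4 hepatocyte libraries and 1 ductal library, so its direction follows from that filter.

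The mice were adult C57BL/6 chimeras, in which transplanted mature hepatocytes carried the red fluorescent marker mTomato and the host liver did not. Every animal had received a diet with 0.1% 3,5-diethoxycarbonyl-1,4-dihydrocollidine (DDC), a porphyrin-inducing hepatotoxin that causes bile duct injury and a ductal reaction, for 5 to 8 weeks. The first group, 5 libraries, was mTomato-positive ductal cells, descended from the donor hepatocytes and called hepatocyte-derived here. The second, also 5 libraries, was mTomato-negative ductal cells of the host, called cholangiocyte-derived here. Both were sorted after collagenase digestion by the ductal surface antigen MIC1-1C3, low side scatter and no staining for CD11b, CD26, CD31 and CD45. The third group was hepatocytes, in 4 libraries, where the series' design text counts 3 samples, and the labels do not say whether these carried mTomato. No group without DDC was analysed here, so no value below can be read as a response to the diet or as free of one. Donor against host origin and the lineage of the ductal cells cannot be told apart, since each donor-derived ductal library is hepatocyte-derived and each host library cholangiocyte-derived. The host's genotype is not given in the sources used here.

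NRF2 is a basic leucine zipper transcription factor that is made continuously and destroyed quickly. KEAP1 binds it and presents it to a CUL3 ubiquitin ligase, and electrophiles or oxidants that modify cysteines of KEAP1 let NRF2 build up, pair with a small MAF protein and bind antioxidant response elements. Because this control acts on the protein, the Nfe2l2 transcript does not report NRF2 activity. In liver the pathway is known for inducing glutathione synthesis, quinone reduction and conjugation of xenobiotics.

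The promoters of 8 of the 10 genes were in the RefSeq promoter table (mouse GRCm38.p6). Each window ran from 250 bases before to 50 after a start site. There were 10 windows in all, because Txnrd1 has several starts. The motifs searched, on both strands, were the core of the antioxidant response element, TGACNNNGC, and the AP-1 type element TGANTCA, which resembles it and can overlap it. The core was in 4 of the 10 windows, those of Nfe2l2, Gclm, Txnrd1 and Srxn1, and in 12.4% of all 32851 windows of the table. TGANTCA was in the Srxn1 window alone among the 10 windows, and in 7.8% of all windows. The stretches around the matches are shown because 3 of these 4 genes are targets that differ between the ductal populations below, and Srxn1 carries 2 TGANTCA matches close to its start. Each is written 5′ to 3′ on the strand of the gene, with the matches in capitals. Srxn1 is chr2:152105374-152105523 on the plus strand with both TGANTCA matches. Gclm is chr3:122245377-122245526 on the plus strand, with the core on the opposite strand. Txnrd1 is chr10:82859056-82859205 on the plus strand, also with the core on the opposite strand. Nfe2l2 is chr2:75704764-75704913 on the minus strand with the core on the gene's own strand.
Srxn1: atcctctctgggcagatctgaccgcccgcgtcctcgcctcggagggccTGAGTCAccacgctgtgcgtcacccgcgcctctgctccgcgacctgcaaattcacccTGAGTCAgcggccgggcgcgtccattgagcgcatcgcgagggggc
Gclm: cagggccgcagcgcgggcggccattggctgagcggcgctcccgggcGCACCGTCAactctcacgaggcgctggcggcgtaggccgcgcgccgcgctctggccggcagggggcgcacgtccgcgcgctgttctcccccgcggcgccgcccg
Txnrd1: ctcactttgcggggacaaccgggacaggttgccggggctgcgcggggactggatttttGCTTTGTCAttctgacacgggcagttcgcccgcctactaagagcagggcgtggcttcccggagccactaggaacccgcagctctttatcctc
Nfe2l2: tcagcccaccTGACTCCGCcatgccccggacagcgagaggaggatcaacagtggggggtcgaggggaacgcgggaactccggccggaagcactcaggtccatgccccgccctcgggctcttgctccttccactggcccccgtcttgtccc
A match describes the letters only. The core of Srxn1 lay after its start site, outside the stretch shown. The window of Nqo1 held neither motif, which says only that these letters are not in that window.

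The libraries held an estimated 17400000 to 27000000 reads each, a rough figure read from the steps between low values. Bulk values cannot tell fewer cells of a type from less RNA per cell. The summed RPKM of 12 biliary markers was 17010.0 to 19816.3 in hepatocyte-derived, 20902.8 to 22429.5 in cholangiocyte-derived and 643.4 to 1430.8 in hepatocyte libraries. Most of this sum was Spp1, with means of 17559.8, 18618.3 and 938.3. Other biliary markers differed between the ductal groups, such as Krt19 (42.5 against 657.9 RPKM in cholangiocyte-derived cells) and Epcam (85.3 against 545.5). Of the 12, 7 were called lower in hepatocyte-derived cells and 5 were not called, where 21.0% of all tested genes were called lower (calls are defined below). For 12 hepatocyte markers it was 6477.3 to 11432.9, 3491.3 to 4854.6 and 50777.0 to 69035.9. Hepatocyte library 118 stood apart, with a macrophage marker sum (14 genes) of 1457.4 against 111.0 to 123.4 in the other hepatocyte libraries. The cholangiocyte-derived libraries 118 and 220 had the highest stellate sums of 10 genes, 404.2 and 468.5, where the hepatocyte-derived libraries held 10.7 to 29.9. Lymphocyte markers summed to at most 2.65 in any library. Libraries carry numbers that recur across groups, which may mark animals, though the labels do not say so, and p-values then measure only the spread between these libraries. The scale also matters: with the values as deposited, the median of the log2 fold changes over the whole tested set was 0.67 and 0.76 for the ductal groups against hepatocytes and -0.03 between the ductal groups. Rescaling by median ratios brought the first pair to 0.01 and 0.05.

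The message for NRF2 itself was about 3 times as abundant in both ductal populations as in hepatocytes, while the message for KEAP1 was close to level. Most of the targets went the other way. Of the 10 genes, hepatocyte-derived cells against hepatocytes gave 1 called higher (Nfe2l2) and 7 called lower, where 66.2% of all tested genes were called higher and 14.8% lower. In cholangiocyte-derived cells 2 were called higher than in hepatocytes (Nfe2l2 and Gpx2) and 7 lower, where 67.1% of all tested genes were called higher and 17.4% lower. These shares depend on the scale. After rescaling by median ratios, hepatocyte-derived cells gave 1 higher and 9 lower, where 37.2% of all genes were higher and 36.8% lower. Cholangiocyte-derived cells then gave 2 higher and 8 lower, where 40.3% of all genes were higher and 38.4% lower. A call is a Benjamini-Hochberg adjusted p under 0.05 in limma on log2(RPKM + 1), two-sided and adjusted over all tested genes, and the fold changes with SE below are on that scale, on which changes of low genes look smaller than they are. The median log2 fold change of the 10 genes was -0.87 for hepatocyte-derived and -1.08 for cholangiocyte-derived cells against hepatocytes, beside the 0.67 and 0.76 of all tested genes. These 2 comparisons share the hepatocyte libraries. Slc7a11 is 1 of the 7 lower genes in each, and without it 6 of the other 9 were lower.

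**Figure D1:**
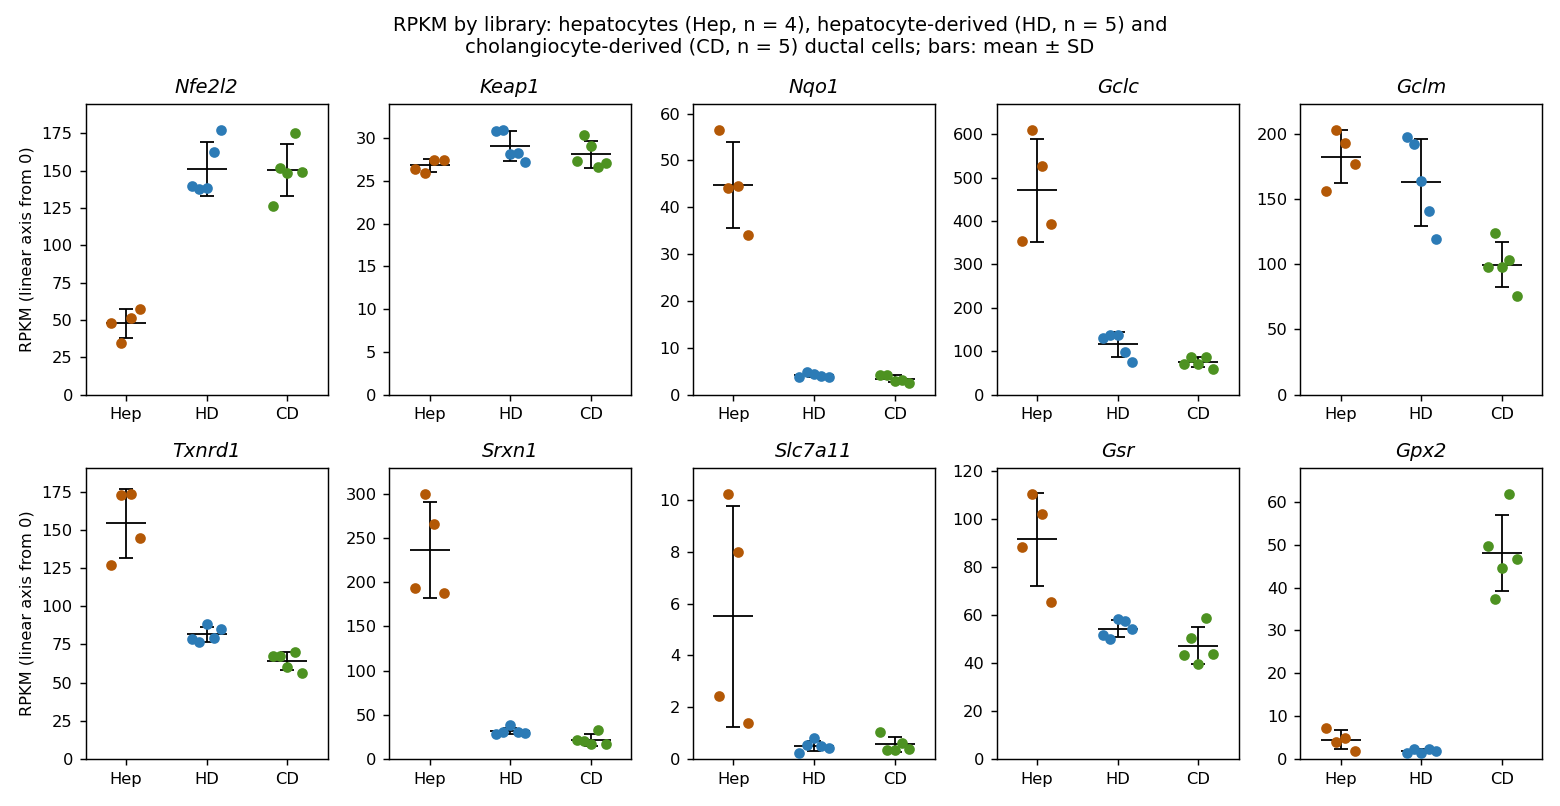
RPKM of each of the 10 genes in every library (points, linear axes from 0), with the mean and SD of hepatocytes (Hep, 4 libraries), hepatocyte-derived ductal cells (HD, 5) and cholangiocyte-derived ductal cells (CD, 5). Nfe2l2 lies higher in both ductal groups, Nqo1, Gclc, Txnrd1 and Srxn1 lie highest in hepatocytes, and Gpx2 lies highest in CD, at 37.4 to 61.7 RPKM.

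Nfe2l2 (NM_010902, mm9 chromosome 2, 75513576 to 75542698, minus strand) read 139.6, 137.9, 138.5, 162.3 and 177.2 RPKM in the hepatocyte-derived libraries 219, 220, 225, 248 and 611. It read 126.0, 151.8, 148.8, 175.1 and 149.2 RPKM in the cholangiocyte-derived libraries 118, 219, 220, 225 and 611. The hepatocyte libraries 118, 225, 248 and 611 held 47.7, 34.4, 51.5 and 57.3 RPKM, all below every ductal library. The means were 151.1 ± 17.8 (SD, n = 5), 150.2 ± 17.4 (n = 5) and 47.7 ± 9.7 (n = 4), 3.17-fold and 3.15-fold higher in the ductal groups. The log2 fold change was 1.66 ± 0.138 (SE; adjusted p = 4.79e-08) for hepatocyte-derived and 1.65 ± 0.138 (adjusted p = 3.57e-08) for cholangiocyte-derived cells. After rescaling by median ratios these were 0.87 and 0.82 (adjusted p = 5.3e-05 and 7.14e-05), the smallest over 27 alternative settings, so the direction held but not the size. Between the ductal groups the values overlapped and the log2 difference was 0.01 ± 0.13 (adjusted p = 0.966).

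Keap1 (NM_001110307, mm9 chromosome 9, 21034174 to 21043776, minus strand) had the lowest coefficient of variation of the 10 genes in each group. It measured 30.9, 31.0, 28.2, 28.3 and 27.2 RPKM in hepatocyte-derived, 27.3, 30.3, 29.1, 26.7 and 27.2 in cholangiocyte-derived and 26.4, 26.0, 27.5 and 27.5 in hepatocyte libraries, in the library order given for Nfe2l2. All 3 groups overlapped, and the coefficients of variation were 5.89%, 5.5% and 2.81%. On the deposited scale the log2 fold changes against hepatocytes were 0.11 ± 0.0637 (adjusted p = 0.121) and 0.06 ± 0.0637 (adjusted p = 0.36). The direction depends on the scale: after rescaling by median ratios Keap1 was called lower in the ductal groups, at -0.67 and -0.75 (adjusted p = 2.28e-07 and 4.45e-08), and with quantile normalization at -0.30 and -0.38 (adjusted p = 0.000468 and 4.23e-05). A ratio within a library does not depend on the scale. Nfe2l2 over Keap1 was 5.23 ± 0.882 in hepatocyte-derived (4.45 to 6.52), 5.36 ± 0.745 in cholangiocyte-derived (4.62 to 6.57) and 1.77 ± 0.321 in hepatocyte libraries (1.32 to 2.08), so the ductal ranges lay wholly above the hepatocyte range.

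Nqo1 encodes a quinone reductase and is among the most used reporters of NRF2 activity. Nqo1 (NM_008706, mm9 chromosome 8, 109912125 to 109927105, minus strand) had 56.5, 44.0, 44.6 and 34.0 RPKM in the hepatocyte libraries 118, 225, 248 and 611. The hepatocyte-derived ductal libraries held 3.82, 4.81, 4.48, 4.0 and 3.83 RPKM and the cholangiocyte-derived ones 4.24, 4.11, 2.84, 3.19 and 2.47. Every hepatocyte library was therefore far above every ductal library. The means of 44.8 ± 9.17 in hepatocytes against 4.19 ± 0.439 and 3.37 ± 0.779 put hepatocytes 10.7-fold and 13.3-fold higher, with log2 fold changes of -3.12 ± 0.147 (adjusted p = 1.87e-10) and -3.39 ± 0.147 (adjusted p = 3.79e-11) for the ductal groups.

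Glutathione, the main small thiol antioxidant of the cell, is made in a rate-limiting step by glutamate-cysteine ligase, whose catalytic subunit is encoded by Gclc and whose modifier subunit by Gclm. Gclc (NM_010295, mm9 chromosome 9, 77602617 to 77641458, plus strand) was at 354.2, 609.9, 527.0 and 392.7 RPKM in hepatocytes, the highest mean of the 10 genes. It was at 131.0, 137.1, 136.7, 97.2 and 75.1 RPKM in hepatocyte-derived and at 71.0, 87.2, 70.3, 86.0 and 58.5 in cholangiocyte-derived libraries. No ductal library reached the lowest hepatocyte library. The means were 471.0 ± 118.6, 115.4 ± 27.9 and 74.6 ± 12.05, so hepatocytes were 4.08-fold above hepatocyte-derived and 6.31-fold above cholangiocyte-derived cells. The log2 fold changes were -2.02 ± 0.204 (adjusted p = 3.72e-07) and -2.62 ± 0.204 (adjusted p = 1.61e-08).

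Gclm (NM_008129, mm9 chromosome 3, 121948510 to 121969566, plus strand) did not follow its partner. It was at 197.7, 192.3, 164.0, 141.2 and 119.6 RPKM in hepatocyte-derived, 97.5, 123.7, 97.7, 103.6 and 75.7 in cholangiocyte-derived and 156.4, 202.9, 193.4 and 177.2 in hepatocyte libraries. The hepatocyte-derived range overlapped both of the others, while the cholangiocyte-derived range lay wholly below the hepatocyte one. Hepatocytes were 1.83-fold above cholangiocyte-derived cells (182.5 ± 20.4 against 99.6 ± 17.2), a log2 fold change of -0.88 ± 0.16 (adjusted p = 0.000128; -0.53 with quantile normalization and -1.71 after rescaling by median ratios). For hepatocyte-derived cells (162.9 ± 33.3) the log2 fold change was -0.18 ± 0.16 (adjusted p = 0.31). That call depends on the processing: it was 0.21 with quantile normalization (adjusted p = 0.279), -0.34 with the library number as a block (adjusted p = 0.0181), -0.30 with library weights (adjusted p = 0.0185) and -0.98 after rescaling by median ratios (adjusted p = 5.2e-05), and the adjusted p ran from 5.2e-05 to 0.657 over 27 alternatives.

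Slc7a11 encodes the light chain of the cystine-glutamate antiporter, which brings in the cystine that glutathione synthesis uses. Slc7a11 (NM_011990, mm9 chromosome 3, 50168858 to 50247535, minus strand) was the lowest of the 10 genes in ductal cells, at 0.24, 0.53, 0.81, 0.51 and 0.42 RPKM in hepatocyte-derived and 1.05, 0.36, 0.35, 0.63 and 0.4 in cholangiocyte-derived libraries. Hepatocytes had 2.44, 10.22, 7.98 and 1.4 RPKM, a wide spread (mean 5.51 ± 4.27), with libraries 225 and 248 well above libraries 118 and 611. The estimated reads behind these values were 43 to 208 in ductal and 272 to 2149 in hepatocyte libraries. The log2 fold changes of -1.85 ± 0.36 and -1.80 ± 0.36 (adjusted p = 0.000257 and 0.000292) are given for completeness, since the gene entered the test through the hepatocytes. Over 25 alternatives they ran from -2.88 to -0.84 and from -2.78 to -0.83.

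Gsr encodes glutathione reductase, which returns oxidized glutathione to its thiol form. Gsr (NM_010344, mm9 chromosome 8, 34763710 to 34808634, plus strand) was at 88.2, 110.3, 102.1 and 65.6 RPKM in hepatocytes. The hepatocyte-derived libraries held 51.6, 50.2, 58.5, 57.5 and 54.0 RPKM and the cholangiocyte-derived ones 43.5, 50.4, 39.7, 58.9 and 43.8, all below the lowest hepatocyte library. Hepatocytes were 1.68-fold and 1.94-fold higher, with log2 fold changes of -0.72 ± 0.141 (adjusted p = 0.000287) and -0.93 ± 0.141 (adjusted p = 2.35e-05). After rescaling by median ratios these were -1.51 and -1.75.

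Txnrd1 encodes the cytosolic thioredoxin reductase and Srxn1 encodes sulfiredoxin, which repairs over-oxidized peroxiredoxins. Txnrd1 (NM_015762, mm9 chromosome 10, 82321951 to 82360469, plus strand) was at 127.2, 172.6, 173.2 and 144.4 RPKM in hepatocytes, at 78.6, 76.9, 88.2, 79.5 and 85.3 in hepatocyte-derived and at 67.6, 67.5, 60.1, 70.0 and 56.4 in cholangiocyte-derived libraries. It was the one gene of the 10 whose 3 groups were fully separate. The share of all tested genes with 3 separate groups was not computed, so this is only a description. Hepatocytes were 1.89-fold and 2.4-fold higher than the ductal groups, with log2 fold changes of -0.90 ± 0.1 (adjusted p = 1.08e-06) and -1.24 ± 0.1 (adjusted p = 2.44e-08), and of -1.70 and -2.07 after rescaling by median ratios. Srxn1 (NM_029688, mm9 chromosome 2, 151931466 to 151937089, plus strand) was at 193.6, 299.4, 265.7 and 188.4 RPKM in hepatocytes. The hepatocyte-derived libraries held 28.6, 31.01, 37.96, 30.8 and 28.99 RPKM and the cholangiocyte-derived ones 21.6, 20.6, 16.9, 32.5 and 16.4. Hepatocytes were thus 7.52-fold and 11.0-fold higher, with log2 fold changes of -2.85 ± 0.186 (adjusted p = 4.13e-09) and -3.41 ± 0.186 (adjusted p = 3.85e-10).

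Gpx2 encodes a glutathione peroxidase best known from gut epithelium. Gpx2 (NM_030677, mm9 chromosome 12, 77893322 to 77896541, minus strand) was at 49.8, 37.4, 44.6, 61.7 and 46.6 RPKM in the cholangiocyte-derived libraries. It was at 1.49, 2.34, 1.45, 2.35 and 1.95 RPKM in the hepatocyte-derived libraries and at 7.19, 4.06, 4.9 and 1.89 in hepatocytes. The lowest cholangiocyte-derived library was thus several times the highest library of any other group, while the hepatocyte-derived and hepatocyte ranges overlapped. Cholangiocyte-derived cells (48.0 ± 8.9) were 10.6-fold above hepatocytes (4.51 ± 2.19), a log2 fold change of 3.23 ± 0.236 (adjusted p = 8.34e-09). Hepatocyte-derived cells (1.92 ± 0.438) were called lower than hepatocytes, at -0.84 ± 0.236 (adjusted p = 0.00464; -0.43 to -1.72 over 27 alternatives). The highest hepatocyte value came from library 118, which also had the highest biliary marker sum of its group, 1430.8, and without it hepatocytes were 1.89-fold rather than 2.35-fold above hepatocyte-derived cells.

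The low ductal levels stand beside what the ductal libraries retained of hepatocyte transcripts. As a percent of the hepatocyte mean, albumin (Alb) was at 13.1% in hepatocyte-derived and 8.07% in cholangiocyte-derived libraries, and the 12 hepatocyte markers had medians of 10.7% (1.48% to 86.1%) and 5.61% (2.63% to 24.7%). Nqo1 was at 9.36% and 7.53%, Srxn1 at 13.3% and 9.13%, and Slc7a11 at 9.11% and 10.1%, within the range of those markers. Gclc was at 24.5% and 15.8%, also within it, while Txnrd1 (52.9% and 41.7%), Gsr (59.4% and 51.6%) and Gclm (89.3% and 54.6%) were above the highest marker in cholangiocyte-derived cells. How much of the ductal signal of Nqo1 and Srxn1 came from carried-over hepatocyte RNA was not tested.

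**Figure D2:**
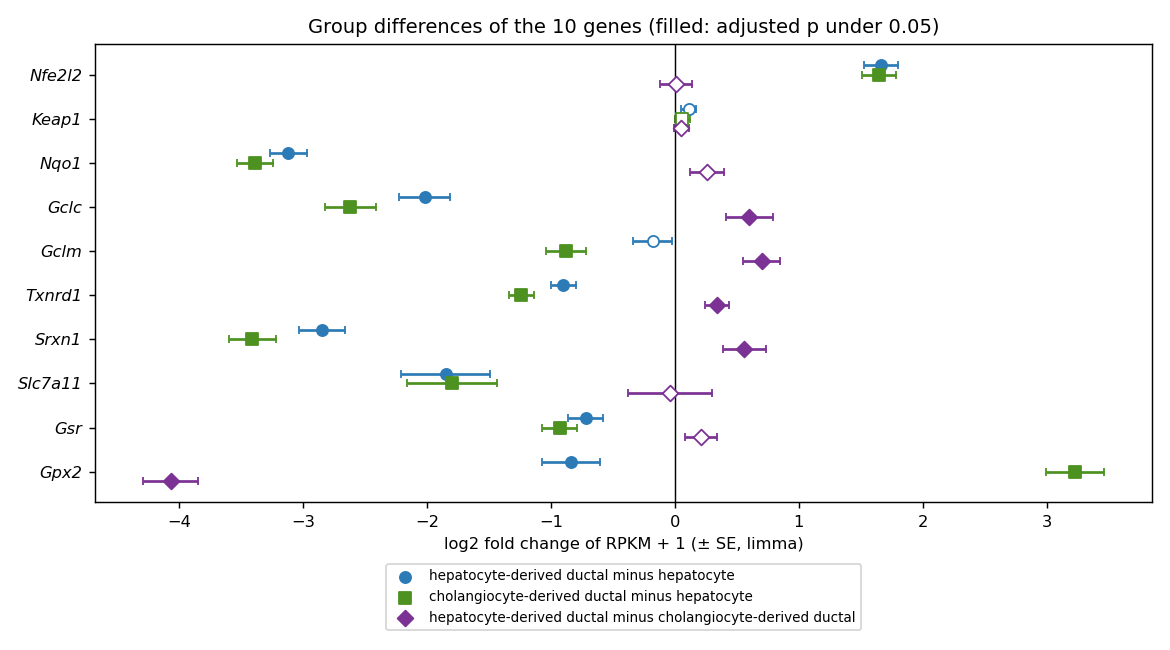
Log2 fold change of RPKM + 1 with its SE (horizontal axis) for each of the 10 genes in the 3 comparisons, from limma over 14 libraries. Filled symbols have an adjusted p under 0.05. Nfe2l2 lies to the right for both ductal groups against hepatocytes, at 1.66 and 1.65, and Gpx2 lies on opposite sides, at 3.23 for cholangiocyte-derived and -0.84 for hepatocyte-derived cells.

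The comparison of the ductal populations asks how hepatocyte-derived ductal cells differ from the cholangiocyte-derived ones beside them. Glutamate-cysteine ligase (Gclc, Gclm), thioredoxin reductase (Txnrd1) and sulfiredoxin (Srxn1) were modestly higher in hepatocyte-derived cells, 1.27-fold to 1.64-fold, and Gpx2 was 25.1-fold lower. Thus 4 of the 10 genes were called higher and 1 lower, where 15.1% of all tested genes were called higher and 21.0% lower. The median log2 fold change of the 10 genes was 0.24, beside -0.03 for all tested genes. Nfe2l2, Keap1, Nqo1, Slc7a11 and Gsr were not called, which does not show that they were equal.

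Gclm was 1.64-fold higher, a log2 fold change of 0.70 ± 0.151 (adjusted p = 0.00202), with the lowest hepatocyte-derived library (611, 119.6 RPKM) just under the highest cholangiocyte-derived one (219, 123.7). Txnrd1 was 1.27-fold higher, at 0.34 ± 0.0946 (adjusted p = 0.0104), and its groups did not overlap. Both calls held in all 27 alternatives, with adjusted p up to 0.0128 and 0.0308. Gclc was 1.55-fold higher, at 0.60 ± 0.192 (adjusted p = 0.0242), and Srxn1 1.46-fold higher, at 0.56 ± 0.176 (adjusted p = 0.0223), both with overlapping groups. Their direction held throughout, but the Gclc call was lost in 7 of the 27 alternatives (adjusted p 0.0503 to 0.0778 there; 0.000959 to 0.0778 over all) and the Srxn1 call in 4 (0.0614 to 0.094; 0.000394 to 0.094 over all). Leaving out hepatocyte-derived library 225, cholangiocyte-derived 220 or cholangiocyte-derived 611 lost both calls, which left 2 genes called higher. Gclc alone was lost without hepatocyte-derived 219 or 220 or cholangiocyte-derived 118 (adjusted p = 0.0612, 0.0632 and 0.0503). For Gpx2 the log2 fold change was -4.07 ± 0.223 (adjusted p = 5.34e-09), and it stayed between -2.92 and -4.59 over the alternatives. The estimated reads for Gpx2 were 31 to 68 in hepatocyte-derived and 918 to 1291 in cholangiocyte-derived libraries.

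The 4 numbers 219, 220, 225 and 611 occur in both ductal groups, so the libraries can be set side by side. Gclc was higher in the hepatocyte-derived library at all 4 numbers, by ratios of 1.28 to 1.95. The same held for Gclm (1.58 to 1.97), Txnrd1 (1.16 to 1.51) and Srxn1 (1.17 to 1.83). These 4 genes were already called higher on the same libraries, so the ratios are a description and no separate support. The share of all tested genes higher at all 4 numbers was not computed. The ratio for Nqo1 ran from 0.929 to 1.69 and that for Gsr from 0.993 to 1.26, each above 1 at 3 of 4 numbers. Nfe2l2 was lower in the hepatocyte-derived library at 3 of 4 numbers, with ratios of 0.791 to 1.19. Gpx2 was lower at all 4, at 0.0235 to 0.0525 of the cholangiocyte-derived library. With the number as a block, a fit in which same-numbered libraries are compared, Nqo1 was also called higher, at 0.34 (adjusted p = 0.0296), against 0.26 ± 0.139 (adjusted p = 0.165) without it, and 5 genes were called higher and 1 lower.

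**Figure D3:**
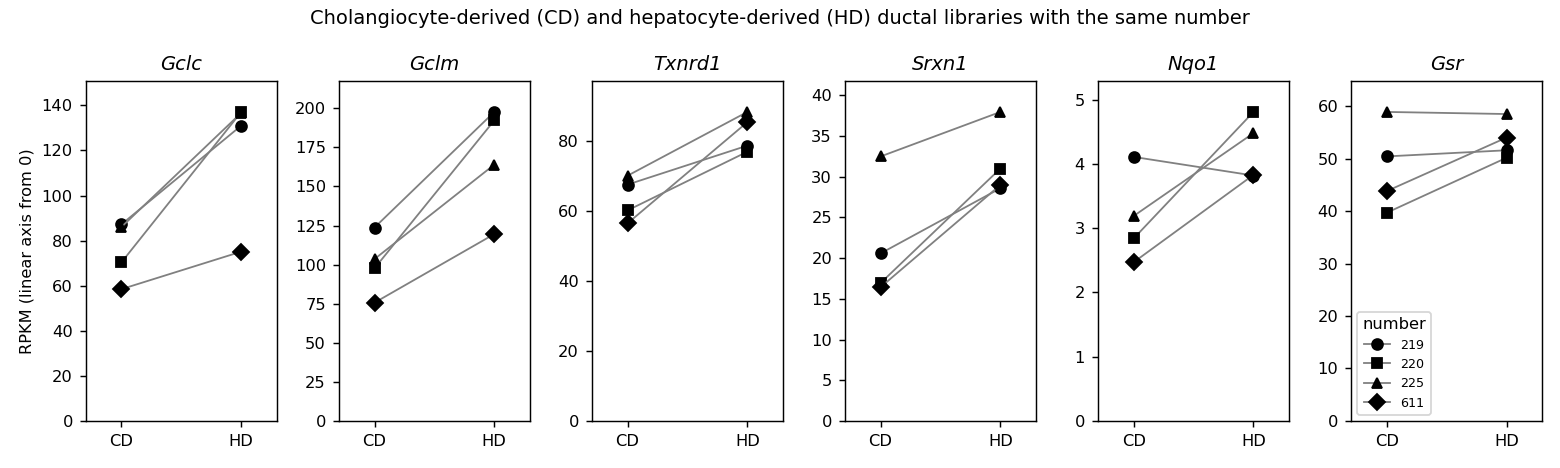
RPKM (linear axes from 0) in the cholangiocyte-derived (CD) and hepatocyte-derived (HD) ductal library with the same number, joined by a line, for 6 targets and 4 numbers. All 4 lines rise from CD to HD for Gclc, Gclm, Txnrd1 and Srxn1, while 1 line falls for Nqo1 and 1 for Gsr.

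Like these 4 targets, some hepatocyte markers were higher in hepatocyte-derived than in cholangiocyte-derived cells. The hepatocyte marker sum, in which Alb was the most abundant gene, was 6477.3, 11432.9, 8288.1, 6756.9 and 8676.4 RPKM in the hepatocyte-derived libraries 219, 220, 225, 248 and 611. All were above the 3491.3 to 4854.6 of the cholangiocyte-derived libraries. Of the 12 markers 6 were called higher, among them Alb (log2 fold change 0.66, adjusted p = 0.0359), and 0 lower, beside 15.1% and 21.0% of all tested genes. Of the 6 not called, Cyp7a1 and Cyp3a11 averaged lower in hepatocyte-derived cells (0.836 against 1.34 and 34.8 against 62.0 RPKM), and the others averaged higher. The part of hepatocyte RNA in the difference of the 4 targets was not tested. Within the hepatocyte-derived group, library 220, with the highest sum, had the highest Gclc (137.1 RPKM), the second highest Gclm (192.3) and Srxn1 (31.01) and the lowest Txnrd1 (76.9). Library 219, with the lowest sum, had the lowest Srxn1 (28.59), the second lowest Txnrd1 (78.6) and the highest Gclm (197.7). Library 611, with the second highest sum, had the lowest Gclc and Gclm (75.1 and 119.6) and the second highest Txnrd1 (85.3). The stellate markers moved the opposite way, with 6 of 9 tested called lower in hepatocyte-derived cells, beside 21.0% of all tested genes. Without the cholangiocyte-derived libraries 118 and 220 and hepatocyte library 118, which carry most transcripts of other cells, Gclm and Txnrd1 remained called and Gclc and Srxn1 did not (0.56 and 0.47, adjusted p = 0.0778 and 0.094).

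Among the libraries of a group the targets did not all vary together. Number 225 had the highest value of its group for Srxn1 and Gsr in all 3 groups: Srxn1 was 37.96, 32.5 and 299.4 RPKM there and Gsr 58.5, 58.9 and 110.3. Number 611 had the lowest Gclc and Gclm of both ductal groups. In hepatocytes, libraries 225 and 248 were the 2 highest for Gclc, Gclm, Txnrd1, Srxn1, Slc7a11 and Gsr, while for Nqo1 the highest was library 118. These orders were noticed after the values were seen and are given as a description.

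Of the proteins that act on NRF2 or share its binding sites, 16 of 17 listed genes were tested and Amer1 was not analysed here. In hepatocyte-derived cells 13 were called higher and 1 lower than in hepatocytes, with a median log2 fold change of 0.80, and in cholangiocyte-derived cells 12 higher and 2 lower (0.89), close to the shift of all tested genes, of which 66.2% and 67.1% were called higher and 14.8% and 17.4% lower. After rescaling by median ratios the counts were 6 higher and 4 lower, and 8 higher and 5 lower, where 37.2% and 40.3% of all genes were higher and 36.8% and 38.4% lower. Cul3, the scaffold of the ligase that degrades NRF2, was at 62.2 ± 4.4 RPKM in hepatocyte-derived, 70.7 ± 2.36 in cholangiocyte-derived and 34.1 ± 4.2 in hepatocyte libraries, with log2 fold changes of 0.85 ± 0.0843 (adjusted p = 2.98e-07) and 1.04 ± 0.0843 (adjusted p = 2.57e-08), which rescaling reduced to 0.07 (adjusted p = 0.508) and 0.22 (adjusted p = 0.0347). Sqstm1 encodes p62, which can draw KEAP1 into autophagy and is itself an NRF2 target. It had the opposite order, 491.2 ± 32.8, 410.7 ± 40.5 and 843.6 ± 109.2 RPKM, with log2 fold changes of -0.77 ± 0.107 (adjusted p = 1.04e-05) and -1.03 ± 0.107 (adjusted p = 4.04e-07). Both Sqstm1 calls were lost with quantile normalization, at 0.09 and -0.24 (adjusted p = 0.498 and 0.0651), and both were larger after rescaling, at -1.58 and -1.87.

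Bach1, a repressor that competes with NRF2 for its sites, was higher in hepatocyte-derived than in cholangiocyte-derived cells, at 19.7 ± 0.757 against 15.0 ± 1.54 RPKM (log2 fold change 0.37 ± 0.0915, adjusted p = 0.00484). Against the 12.3 ± 1.86 RPKM of hepatocytes its direction turned with the scale, from 0.65 and 0.27 as deposited to -0.11 and -0.51 after rescaling. Of the small MAF partners, Mafk was lower in hepatocyte-derived than in cholangiocyte-derived cells, 33.5 ± 6.64 against 69.1 ± 23.4 RPKM (-0.97 ± 0.218, adjusted p = 0.00265). Mafg, at 25.4 ± 2.53 and 21.0 ± 2.15 RPKM, was not called between them (0.26 ± 0.148, adjusted p = 0.197). The NRF2 relatives differed from each other. Nfe2l1, which drives proteasome genes, was at 111.2 ± 11.5, 107.0 ± 4.19 and 46.2 ± 5.38 RPKM, higher in both ductal groups (1.25 ± 0.0924 and 1.20 ± 0.0924, adjusted p = 1.4e-08 and 1.43e-08; 0.46 and 0.37 after rescaling). Nfe2l3 was at 16.6 ± 2.28 RPKM in cholangiocyte-derived cells against 2.41 ± 1.13 in hepatocyte-derived cells and 0.198 ± 0.147 in hepatocytes, and the ductal difference was -2.42 ± 0.179 (adjusted p = 1.13e-07). Its higher calls against hepatocytes follow from the filter, which Nfe2l3 passed only through the ductal libraries.

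Of 35 other genes known as NRF2 targets, all tested, 27 were called lower and 4 higher in hepatocyte-derived cells than in hepatocytes (median log2 fold change -0.96), and 25 lower and 5 higher in cholangiocyte-derived cells (-1.66). Of all tested genes 14.8% and 17.4% were lower and 66.2% and 67.1% higher. After rescaling the list gave 30 lower and 4 higher, and 28 lower and 4 higher, where 36.8% and 38.4% of all genes were lower and 37.2% and 40.3% higher. Many of them encode conjugating and transport proteins that hepatocytes make at high level. Mgst1, a microsomal glutathione transferase, was at 753.3 ± 59.0, 687.8 ± 69.7 and 3818.7 ± 1080.2 RPKM in hepatocyte-derived, cholangiocyte-derived and hepatocyte libraries (log2 fold changes -2.30 ± 0.156 and -2.44 ± 0.156, adjusted p = 5.81e-09 and 1.99e-09; -1.02 and -1.17 with quantile normalization). Ugt1a6a, a glucuronosyltransferase, was at 25.6 ± 10.1, 18.6 ± 6.4 and 316.5 ± 19.1 RPKM (-3.65 ± 0.27 and -4.09 ± 0.27, adjusted p = 1.42e-08 and 2.72e-09). Its reads, like those of Gstm1 and Gstm4, may be shared with near-identical family members. The exceptions included G6pdx, which supplies NADPH through the pentose phosphate pathway, at 15.7 ± 2.08, 40.0 ± 4.46 and 4.24 ± 1.27 RPKM (1.69 ± 0.146 and 2.99 ± 0.146, adjusted p = 7.17e-08 and 1.2e-10). Abcc1, an exporter of glutathione conjugates, was at 14.8 ± 2.15, 21.4 ± 1.11 and 2.94 ± 1.08 RPKM (2.03 ± 0.154 and 2.55 ± 0.154, adjusted p = 1.88e-08 and 1.12e-09).

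Hmox1, the heme oxygenase that NRF2 and BACH1 both control, was at 31.6 ± 3.62, 34.7 ± 9.0 and 58.4 ± 24.6 RPKM in the same order. It was called lower in both ductal groups than in hepatocytes, at -0.76 ± 0.263 (adjusted p = 0.0158) and -0.65 ± 0.263 (adjusted p = 0.0318), but not with the number as a block (adjusted p = 0.0773 and 0.0786) nor without the 3 libraries richest in other cells' transcripts (adjusted p = 0.0573 and 0.0734). The ductal groups were not called different in Hmox1 (-0.10 ± 0.248, adjusted p = 0.787). Between the ductal groups 8 of the 35 targets were called higher and 5 lower in hepatocyte-derived cells, beside 15.1% higher and 21.0% lower over all tested genes. With the number as a block they were 15 higher and 5 lower, beside 16.3% and 23.0%. The median log2 fold change of the 35 was 0.14 without the block. The largest of the higher calls included Abcc2, the canalicular conjugate exporter, at 78.0 ± 12.7 against 25.5 ± 8.18 RPKM (1.61 ± 0.22, adjusted p = 4.14e-05), and Aox1, an aldehyde oxidase, at 27.4 ± 3.78 against 8.53 ± 3.13 (1.62 ± 0.201, adjusted p = 1.66e-05). Gstm1 was at 601.5 ± 96.3 against 269.8 ± 63.1 RPKM (1.17 ± 0.192, adjusted p = 0.000223), and G6pdx was lower in hepatocyte-derived cells (-1.30 ± 0.137, adjusted p = 3.61e-06).

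The 30 other glutathione and thioredoxin genes gave 17 lower and 9 higher calls in hepatocyte-derived cells against hepatocytes (median -0.63), and 17 lower and 8 higher in cholangiocyte-derived cells (-0.97). The shares of all tested genes were 14.8% and 17.4% lower and 66.2% and 67.1% higher. Rescaling made the list's counts 21 lower and 5 higher, and 23 lower and 4 higher, and the shares 36.8% and 38.4% lower and 37.2% and 40.3% higher. Cth, which makes cysteine from cystathionine, was at 236.3 ± 41.2 RPKM in hepatocytes against 8.19 ± 3.34 and 7.26 ± 4.35 in the ductal groups (-4.77 ± 0.417 and -5.04 ± 0.417, adjusted p = 8.22e-08 and 3.16e-08). Ggt1, the enzyme that breaks down extracellular glutathione, had the reverse order, 0.235 ± 0.201 RPKM in hepatocytes, 2.55 ± 0.192 in hepatocyte-derived cells and 9.06 to 11.09 in the 5 libraries of cholangiocyte-derived cells. Because Ggt1 passed the filter only through the ductal libraries, its direction against hepatocytes follows from that filter. Between the ductal groups 10 of the 30 were called higher and 4 lower in hepatocyte-derived cells (median 0.22), beside 15.1% and 21.0% of all tested genes. Gpx1, the main cytosolic glutathione peroxidase, was at 1171.3 ± 70.7 against 540.7 ± 68.6 RPKM (1.12 ± 0.118, adjusted p = 3.48e-06), the opposite of Gpx2. Catalase (Cat) was at 511.6 ± 103.9 against 246.6 ± 29.5 RPKM (1.03 ± 0.146, adjusted p = 5.94e-05), and the secreted Gpx3 at 65.7 ± 20.9 against 19.0 ± 5.11 (1.72 ± 0.227, adjusted p = 3.03e-05).

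ATF4 is another stress factor that drives Slc7a11. Its 14 listed targets, which include Atf4 itself, gave 6 higher and 4 lower calls in hepatocyte-derived cells and 6 higher and 5 lower in cholangiocyte-derived cells against hepatocytes, with medians of 0.04 and 0.13, where 66.2% and 67.1% of all tested genes were higher and 14.8% and 17.4% lower. After rescaling there were 3 higher and 7 lower, and 5 higher and 7 lower, where 37.2% and 40.3% of all genes were higher and 36.8% and 38.4% lower. Between the ductal groups 4 were called higher and 3 lower in hepatocyte-derived cells, beside 15.1% and 21.0% of all tested genes. Vldlr, a lipoprotein receptor, was higher in both ductal groups than in hepatocytes (3.39 ± 0.124 and 2.74 ± 0.124, adjusted p = 1.87e-11 and 5.74e-11), and Shmt2, a mitochondrial serine enzyme, was lower (-1.92 ± 0.108 and -2.31 ± 0.108, adjusted p = 9.78e-10 and 7.74e-11). Vldlr and Phgdh, both among the higher calls, reached at most 0.45 and 0.22 RPKM in hepatocytes. They passed the filter only through the ductal libraries, so their direction against hepatocytes follows from that filter.

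**Figure D4:**
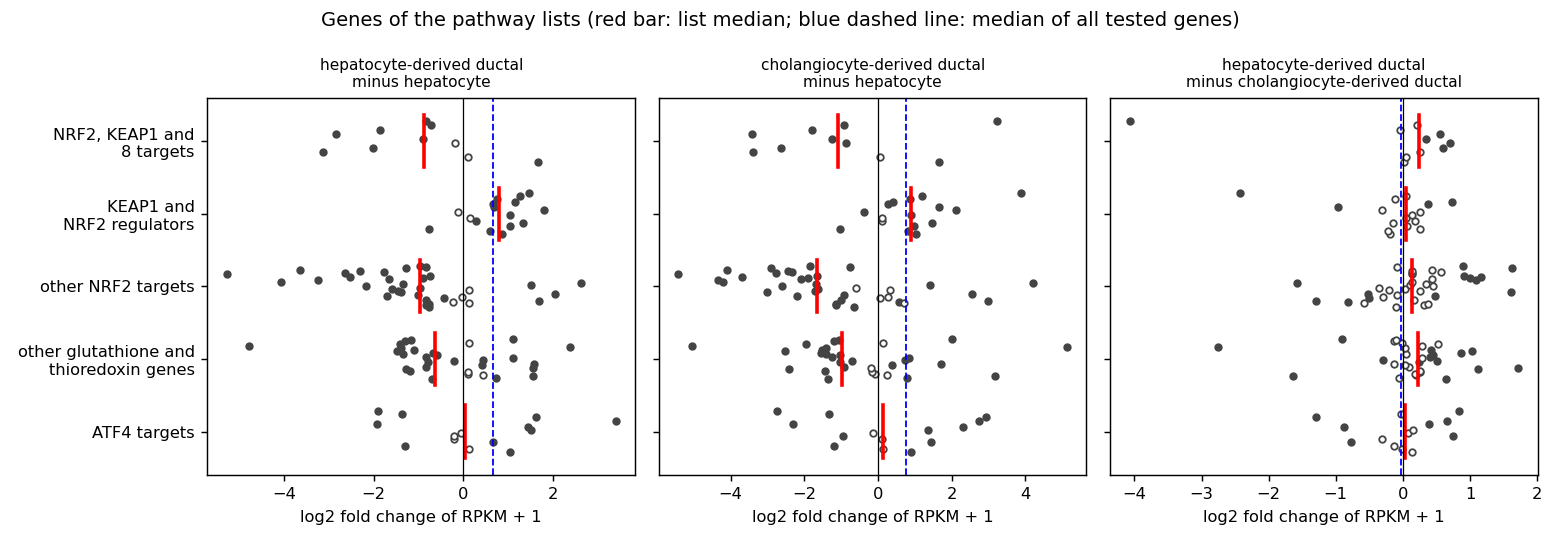
Log2 fold change of RPKM + 1 (horizontal axis) of each tested gene in the 5 lists, 1 panel per comparison, with filled points for adjusted p under 0.05. The red bar is the list's median and the blue dashed line the median of all tested genes: the other NRF2 targets have medians of -0.96 and -1.66 against hepatocytes and 0.14 between the ductal groups.

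The genes whose log2 levels ran most like 3 of the members over the 14 libraries were found by Pearson correlation, which here mostly reflects the steps between the 3 groups and carries no test. For Nfe2l2 they were Prpf3, a splicing factor (r = 0.993; means of 12.4, 12.3 and 5.02 RPKM in hepatocyte-derived, cholangiocyte-derived and hepatocyte libraries), Zfp511 (0.99) and Parp2 (0.986). For Nqo1 they included Mgst1 (0.993; means given above) and Tmem97 (0.992; 12.2, 11.2 and 61.8 RPKM). For Gpx2 they were Dnajb3 (0.977), Sipa1l2 (0.976) and Lama3, a laminin chain of epithelial basement membrane (0.972; 0.23, 6.78 and 0.275 RPKM).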

How the data were processed

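RNA was taken from 14 sorted populations (75 to 200 ng of total RNA), made into unstranded TruSeq libraries and sequenced, per the labels' protocols. The authors deposited 1 table of RPKM values per transcript for 26005 transcripts. The submitters' processing notes name CASAVA, Bowtie 0.12.7 and the mouse build mm9. How reads were counted, and which total and reads matching several places were used, is not given in the sources used here. RPKM keeps no counts, so no count model was fitted.

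Of the columns, 12 matched 1 sample by name. The 2 numbered 220, where the titles carry 120, were matched to their group only. For the 3507 symbols with several transcripts, the transcript with the highest mean was used. log2(RPKM + 1) was fitted with limma 3.58.1 (R 4.3.3) over all 14 libraries with 3 groups and a mean-variance trend, keeping symbols that reached 1 RPKM in 4 or more libraries. P-values were adjusted by Benjamini-Hochberg over the 12638 symbols tested, and the script was first tested on simulated data.

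The genes named are the 10 members, for each list up to 4 genes with the smallest adjusted p per comparison, of which some are described, and Hmox1, Sqstm1, Bach1, Mafg and Cul3. The 3 genes most correlated with each of Nfe2l2, Nqo1 and Gpx2 are also named, except for 1 gene that is not reported here. The members and lists were chosen with earlier results of these data known. Alternatives were other pseudocounts, filters, scalings, transcript choices, fits, weights, a replicate block and left-out libraries. Same-numbered libraries deviated together from their group means in the ductal groups (correlation across genes 0.797, 0.428, 0.212 and 0.424 for numbers 219, 220, 225 and 611), so the numbers were taken to pair them. Between cholangiocyte-derived cells and hepatocytes this was 0.512, 0.133 and 0.225 (118, 225 and 611), also taken as paired. Between hepatocyte-derived cells and hepatocytes it was 0.129, 0.0208 and 0.193 (225, 248 and 611). The replicate block joined all same-numbered libraries, these included. Some libraries with different numbers were as close: hepatocyte-derived 220 with cholangiocyte-derived 118 (0.464), and cholangiocyte-derived 219 with hepatocyte 225 and 248 (0.458 and 0.417). The labels do not say what the numbers mark.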

Additional observations from a re-analysis of the deposited data

Results flagged for a closer look

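Srxn1 in hepatocyte-derived library 225 stood apart from its group, at 37.96 RPKM against 28.59 to 31.01 in the other 4 libraries. The gap took up 0.742 of the group's range, above Dixon's 95% critical value of 0.71. It was the single such value among 30 sets of gene and group checked, of which chance gives about 5%. Number 225 also had the highest Srxn1 in the other 2 groups.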

How the results depend on the processing

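The number of members called kept within 1.5 times of its value in all alternatives, except for genes higher in hepatocyte-derived than in cholangiocyte-derived cells: 4 as reported, 2 without the 3 libraries richest in other cells' transcripts, and 2 to 4 when single libraries were left out. The counts against hepatocytes stayed at 1 higher and 7 lower, and 2 higher and 7 lower, when single libraries were left out, as did the 1 gene lower between the ductal groups. Values that changed sign were Keap1 against hepatocytes, at -0.67 and -0.75 after rescaling and -0.30 and -0.38 with quantile normalization, and Gclm in hepatocyte-derived cells, at 0.21 with quantile normalization. Between the ductal groups, Nfe2l2 moved from 0.01 to -0.03 with quantile normalization, -0.04 with the replicate block, -0.07 without the 3 libraries, and to -0.05 to 0.07 when single libraries were left out (below 0 without hepatocyte-derived 248 or 611 or cholangiocyte-derived 118). Slc7a11 moved from -0.04 to 0.20 with quantile normalization, 0.07 with library weights, and -0.11 to 0.06 when single libraries were left out (above 0 without hepatocyte-derived 219 or cholangiocyte-derived 118). None of these ductal values was called, and the cause was not tested. Nqo1 between the ductal groups was called with the replicate block (0.34, adjusted p = 0.0296), library weights (0.31, 0.0166) and quantile normalization (0.52, 0.00361), and Gsr with library weights (0.35, 0.00842), where the adjusted p over 27 alternatives ran from 0.00361 to 0.359 and from 0.00842 to 0.676. Among the members, the block changed no call other than those of Nqo1 between the ductal groups and Gclm in hepatocyte-derived cells.

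Over all tested genes, rescaling by median ratios changed the calls from 8363 higher and 1873 lower to 4670 and 4613 for hepatocyte-derived cells against hepatocytes, and from 8475 and 2195 to 5050 and 4821 for cholangiocyte-derived cells. Quantile normalization gave 4596 and 4136, and 4891 and 4769. Between the ductal groups, 1913 genes were higher and 2657 lower, and 3069 were higher with quantile normalization and 2987 with library weights. Slc7a11 was not tested with a filter of 5 RPKM or without the 3 libraries. Low reads limit Slc7a11 and Gpx2 in hepatocyte-derived cells.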
